A study of Homo sapiens with 4 samples.

Results

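A set of 9 genes that help control elongation by RNA polymerase II was followed in A2780 cells after treatment with the plant flavone wogonin. A2780 is an established line from a human ovarian tumour. The 9 genes, out of 57773 in the deposited tables, were taken by name: CDK9, CCNT1, CCNT2, HEXIM1, LARP7, MEPCE, AFF4, CDK12 and CDK13. All 9 passed the filter on low counts. The 4 libraries were all labelled WT. DMSO 1 and DMSO 2 received the vehicle, with no time given, and wogonin 3 and wogonin 4 received 10 ug/mL wogonin for 48 h. Whether the paired libraries of a treatment come from different cultures is not stated, so the p-values reflect how far these samples scatter and no more, and that scatter may be technical.

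P-TEFb is the kinase CDK9 bound to cyclin T1 or cyclin T2. It phosphorylates the tail of RNA polymerase II and the pausing factors, and a paused polymerase then moves into the gene. Much of the cell's P-TEFb is held inactive on the 7SK small nuclear RNA, where HEXIM1 blocks the kinase, LARP7 binds the end of the RNA and MEPCE caps it. AFF4 is a scaffold that brings active P-TEFb to genes in the super elongation complex. CDK12 and CDK13 are related kinases that pair with cyclin K and act later in elongation. Flavones have been described as inhibitors of CDK9, but transcript levels do not measure kinase activity.

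The upstream stretches of 4 of these genes are shown because the 2 of the 9 genes with the largest falls, HEXIM1 and MEPCE, both carry the letters of a TATA box in RefSeq's promoter windows. Each line gives the 100 bases before the annotated start, 5′ to 3′ on the gene's strand, with matches to TATANAA on that strand in capitals. MEPCE has 3 RefSeq windows and CCNT1 has 2, and the first of each is shown. The sequences and their coordinates are RefSeq's, on GRCh38.p14, a later build than that of the count files. HEXIM1 is at chr17:45148375-45148474 (+), MEPCE at chr7:100428690-100428789 (+), CDK9 at chr9:127785934-127786033 (+) and CCNT1 at chr12:48716708-48716807 (-).
HEXIM1: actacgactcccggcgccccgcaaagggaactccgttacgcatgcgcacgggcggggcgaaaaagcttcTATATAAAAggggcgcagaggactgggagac
MEPCE: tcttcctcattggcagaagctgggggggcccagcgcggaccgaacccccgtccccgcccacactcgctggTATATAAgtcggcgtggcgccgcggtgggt
CDK9: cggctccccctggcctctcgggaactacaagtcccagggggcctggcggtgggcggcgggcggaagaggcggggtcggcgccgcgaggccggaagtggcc
CCNT1: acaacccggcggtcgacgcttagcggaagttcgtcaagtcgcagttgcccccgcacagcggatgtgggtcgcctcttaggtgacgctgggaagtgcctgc
In HEXIM1 the capitals are 2 overlapping matches that begin at -31 and -29 from the start, and a match on the other strand begins at -34. In MEPCE the match begins at -30, in the first of its 3 RefSeq windows. Of the 14 windows of the 9 genes, 2 held TATANAA on either strand, against 9.10% of all 35116 windows of the same length in the table. On the gene's strand with the first letter between -40 and -20, the share of all windows was 1.48%. HEXIM1 and MEPCE were singled out by their falls, so this share cannot test a link between the letters and the falls. The letters CCAAT were in 5 of the 14 windows and the GC box GGGCGG in 10, again on either strand, against 34.6% and 45.0% of all windows. The E-box CACGTG was in 3 windows (of AFF4, CCNT1 and MEPCE), against 7.26% of all windows. HEXIM2, a relative of HEXIM1 that also fell, had no TATANAA match in either of its RefSeq windows. LARP7, CDK12 and CDK13, which were lower as well, had no TATANAA match in any of theirs. These matches are letters in a window and were not tied to binding of any factor.

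Each library held 11005921 to 11839562 exon reads, of which the 9 genes took 11773 to 14485. At these depths 3 reads, a point of reference and not the filter of the tests, were worth 0.253 to 0.273 CPM. CPM is a gene's reads per 1000000 exon reads of its library, TMM-scaled in the levels below. Mitochondrial genes took 3.03% of exon reads in wogonin 4 (95% Wilson interval 3.02 to 3.04%) against 1.45 to 1.67% in the others. Introns took 7.96% of reads in wogonin 3 (95% Wilson interval 7.95 to 7.98%) against 5.26 to 5.61% in the others. These intervals cover counting error only, since reads are not independent molecules. None of 12 Mullerian and epithelial ovarian markers reached 1 TPM in all libraries, and ESR1, MUC16 and SOX17 had no exon read, so the labelled adenocarcinoma identity was not visible in these markers. The summed level of that list was 2.02 and 2.28 TPM in DMSO and 1.30 and 0.446 TPM in wogonin. Of 11 leukocyte, endothelial and fibroblast markers, PTPRC, CD3E, VWF and CDH5 had no exon read. The summed level of that list was 730 and 699 TPM in DMSO and 823 and 721 TPM in wogonin, nearly all from COL3A1 and ACTA2. COL3A1 stood at 474 and 448 TPM in DMSO and at 354 and 331 TPM in wogonin, and ACTA2 at 246 and 243 TPM in DMSO and at 463 and 384 TPM in wogonin. The part of these markers in the results below was not tested.

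The genes of the kinase and those of its 7SK brake moved in opposite directions. After wogonin the transcripts of CDK9, CCNT1 and CCNT2 were 1.46-fold, 1.47-fold and 1.62-fold higher. Those of HEXIM1, MEPCE and LARP7 were 4.09-fold, 2.27-fold and 1.31-fold lower. CDK12 and CDK13 were 1.25-fold and 1.15-fold lower. In all, 9 of the 9 genes passed an adjusted p of 0.05 in edgeR's quasi-likelihood test with Benjamini-Hochberg adjustment, 4 as higher and 5 as lower, against 63.8% of all 13449 genes tested (32.3% higher and 31.5% lower). Library totals gave 3660 genes higher and 4977 lower, with an all-gene median of -0.093, where 4343 and 4234 were called here. The treated and vehicle libraries did not overlap for any of the 9, which also held for 81.9% of all genes tested. With so many genes changed, the number called says little about these 9, and the account rests on their directions and sizes. For the genes other than HEXIM1 and MEPCE, how common changes of their size are over all genes was not counted. In bulk RNA, fewer cells with a transcript and less of it per cell cannot be told apart. Higher and lower mean relative to the other transcripts of a library, so a shift shared by most genes would not show.

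**Figure D1:**
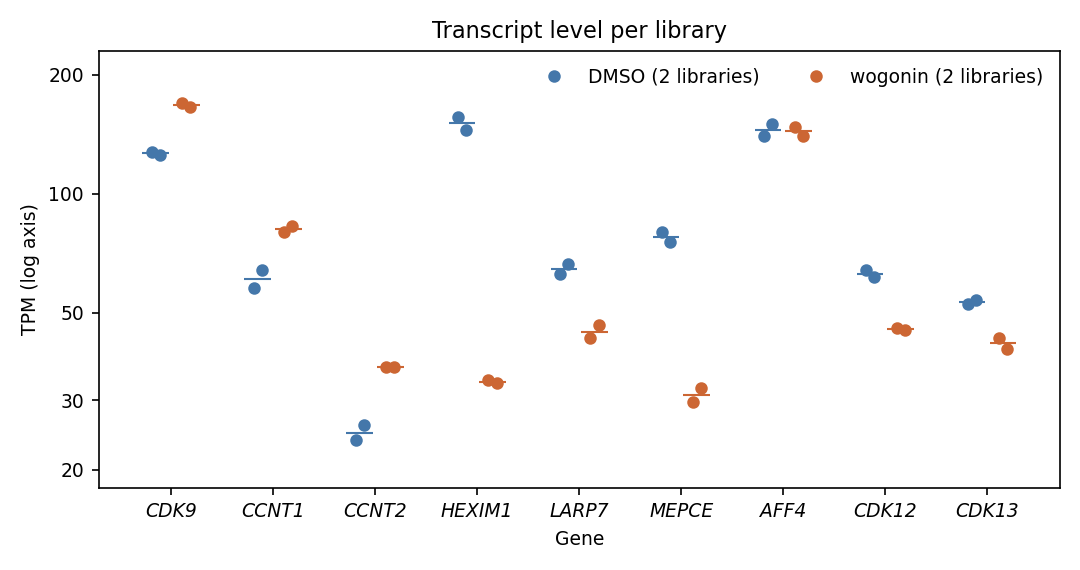
Level of each of the 9 genes in TPM (log axis) in the 2 DMSO (blue) and 2 wogonin (orange) libraries, with a line at each group's mean. HEXIM1 goes from the top of the range (151 TPM) to near its bottom (33.4 TPM), while CDK9, CCNT1 and CCNT2 lie higher in both treated libraries.

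CDK9 encodes the catalytic subunit of P-TEFb (ENSG00000136807, chromosome 9, 130547958 to 130553066 on GRCh37, the build of the deposited files, as are all gene coordinates that follow). Its TMM-scaled level was 90.2 and 86.8 CPM in DMSO 1 and 2 and 128 and 131 CPM in wogonin 3 and 4. Both treated libraries lay above both vehicle libraries, and the gap was many times the spread within either pair. The log2 change, wogonin over DMSO as everywhere here, was 0.55 ± 0.067 (SE, edgeR adjusted p = 2.5e-06). Reads across exon junctions, a subset of the exon reads, numbered 381 and 381 in DMSO and 528 and 507 in wogonin.

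CCNT1 encodes cyclin T1, the main partner of CDK9 (ENSG00000129315, chromosome 12, 49082247 to 49110681). It stood at 98.9 and 108 CPM in DMSO and at 145 and 159 CPM in wogonin, a log2 change of 0.56 ± 0.071 (SE, edgeR adjusted p = 3.6e-06). CCNT2 encodes the related cyclin T2 (ENSG00000082258, chromosome 2, 135675805 to 135716912). It stood at 50.8 and 54.4 CPM in DMSO and at 82.7 and 87.5 CPM in wogonin, a log2 change of 0.69 ± 0.078 (SE, edgeR adjusted p = 1.0e-06). The vehicle and treated libraries were apart for both cyclins. CCNT2 showed the largest rise of the 9 genes. The antisense gene CCNT2-AS1, which overlaps its first 476 bases, had 8 to 17 exon reads in any library.

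HEXIM1 encodes the inhibitor that binds and blocks P-TEFb once it is on 7SK RNA (ENSG00000186834, chromosome 17, 43224684 to 43229468). It had the largest change of the 9 genes. Its level was 176 and 161 CPM in DMSO and 40.4 and 42.0 CPM in wogonin. The treated libraries held about the same low level, far below either vehicle library. The log2 change was -2.03 ± 0.076 (SE, edgeR adjusted p = 6.7e-12), and 270 of the 13449 genes tested (2.01%) fell at least as far past the same threshold. The gene has 1 exon, so it gives neither intron nor junction reads.

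A part of the HEXIM1 reads also matched other places in the genome. Reads placed at HEXIM1 alone numbered 1690 and 1565 in DMSO and 285 and 315 in wogonin, and the others 389 and 408 in DMSO and 148 and 141 in wogonin. Uniquely placed reads alone gave a log2 change of -2.28 ± 0.087 (SE, edgeR adjusted p = 7.2e-16), so the fall was somewhat larger there than in all exon reads. The antisense gene AC002117.1 overlaps the last 1702 bases of HEXIM1 and the first 811 of HEXIM2, its neighbour. It was chosen after its values were seen. Its reads, nearly all outside its exons, went the other way, from 44 and 32 in DMSO to 139 and 119 in wogonin (log2 change in gene reads 1.83 ± 0.23, SE, edgeR adjusted p = 4.5e-05). Whether the counting used strand is not stated, so reads of the strands cannot be told apart at this locus.

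HEXIM2, the close relative of HEXIM1 that can take its place on 7SK RNA, fell as well. It stood at 26.8 and 25.3 CPM in DMSO and at 7.83 and 6.63 CPM in wogonin, a log2 change of -1.85 ± 0.14 (SE, edgeR adjusted p = 8.4e-09). The antisense gene RP13-890H12.2, which overlaps HEXIM2, had 14 and 46 exon reads in DMSO and 8 in each wogonin library.

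MEPCE encodes the methyltransferase that caps and holds 7SK RNA (ENSG00000146834, chromosome 7, 100026413 to 100031741). Its level was 64.3 and 59.5 CPM in DMSO and 25.4 and 29.1 CPM in wogonin, with no overlap. The log2 change was -1.18 ± 0.096 (SE, edgeR adjusted p = 2.4e-08). Falls of at least 1 log2 unit past the threshold were seen in 9.94% of all genes tested, and in HEXIM1 and MEPCE of these 9. Junction reads of MEPCE numbered 195 and 155 in DMSO and 64 in each wogonin library. The gene overlaps 203 bases of ZCWPW1 on the opposite strand, which also fell, from 55 and 67 exon reads to 33 and 21 (edgeR adjusted p = 0.0054).

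LARP7 encodes the protein that binds and protects the end of 7SK RNA (ENSG00000174720, chromosome 4, 113558120 to 113578748). It stood at 60.4 and 62.7 CPM in DMSO and at 44.0 and 50.1 CPM in wogonin. The groups did not overlap, but the treated libraries differed from each other more than the vehicle libraries did. The log2 change was -0.39 ± 0.086 (SE, edgeR adjusted p = 9.0e-04). The MIR302 cluster lies on the other strand within LARP7, and its host gene had at most 2 reads in a library. The 7SK RNA itself, RN7SK, is listed with no exon and 54 and 52 gene reads in DMSO and 68 in each wogonin library (log2 change in gene reads 0.44 ± 0.23, SE, edgeR adjusted p = 0.13), so a change was not shown in these mRNA libraries.

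AFF4, the scaffold of the super elongation complex, was close to level (ENSG00000072364, chromosome 5, 132211071 to 132299326). It stood at 373 and 391 CPM in DMSO and at 418 CPM in each wogonin library. The log2 change was 0.13 ± 0.054 (SE, edgeR adjusted p = 0.045). The call did not pass in 12 of 16 other settings, where adjusted p reached 0.57. Each library left out in turn ended it, DMSO 1 (log2 change 0.08), DMSO 2 (0.16), wogonin 3 (0.14) and wogonin 4 (0.13). In the deposited TPM values the groups overlapped, at 140 and 150 in DMSO and 148 and 140 in wogonin.

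CDK12 encodes an elongation kinase needed for full expression of many long genes (ENSG00000167258, chromosome 17, 37617764 to 37721160). It fell from 155 and 146 CPM in DMSO to 117 and 123 CPM in wogonin, a log2 change of -0.32 ± 0.065 (SE, edgeR adjusted p = 3.4e-04). CDK13, its closest relative (ENSG00000065883, chromosome 7, 39989636 to 40136733), stood at 110.5 and 110.8 CPM in DMSO and at 96.6 and 95.6 CPM in wogonin. Its log2 change was -0.20 ± 0.067 (SE, edgeR adjusted p = 0.013). Both kinases were lower in both treated libraries, by less than HEXIM1 and MEPCE. The CDK13 call did not pass with DESeq2 (adjusted p = 0.067) or without DMSO 2 (edgeR adjusted p = 0.053). All exon reads of CDK12 and CDK13 were uniquely placed, so the relatives did not share counted reads. Cyclin K, the partner of both, went the other way: CCNK stood at 79.0 and 74.5 CPM in DMSO and at 104 and 103 CPM in wogonin (log2 change 0.43, edgeR adjusted p = 5.6e-05). CCNK overlaps 23779 bases of CCDC85C on the opposite strand, which was also higher (log2 change 0.76, edgeR adjusted p = 1.5e-06), and the strands cannot be told apart.

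**Figure D2:**
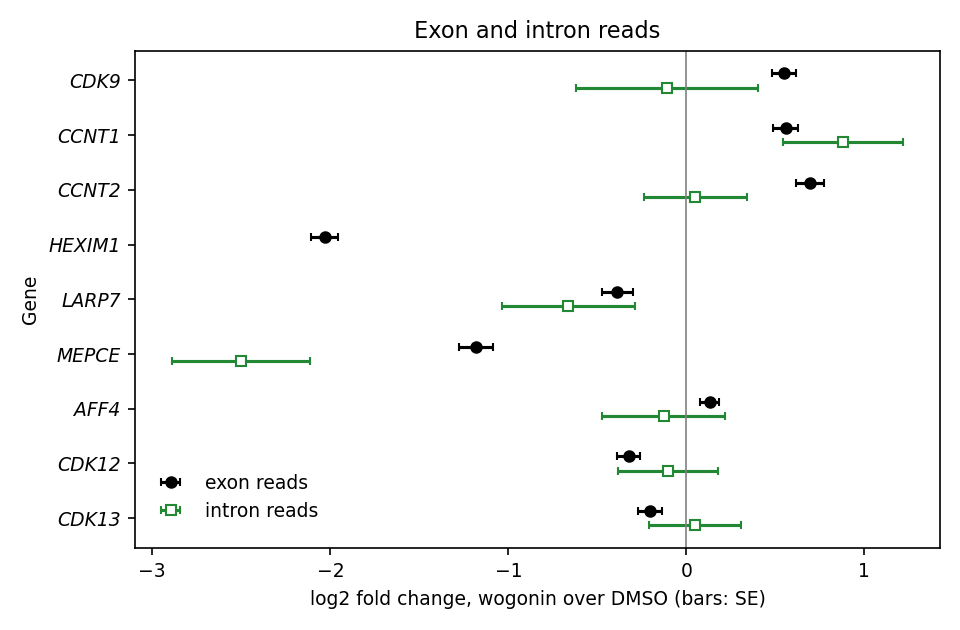
Log2 change of wogonin over DMSO with its SE for exon reads (black circles) and intron reads (green squares) of the 9 genes; HEXIM1 has no intron. Intron values have wide errors, and MEPCE is the gene whose intron value passed the test (-2.50 ± 0.39).

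Levels of different genes were compared per length, in the TPM values of the deposited tables. In DMSO the order from the top was HEXIM1 (151 ± 7.61 TPM, SD, n = 2 in each group), AFF4 (145 ± 6.97), CDK9 (126 ± 1.63), MEPCE (77.7 ± 3.19), LARP7 (64.6 ± 2.64), CDK12 (62.8 ± 1.61), CCNT1 (60.9 ± 4.51), CDK13 (53.1 ± 0.83) and CCNT2 (24.8 ± 1.55). HEXIM1 overlapped AFF4, and LARP7, CDK12 and CCNT1 overlapped their neighbours in that order. In wogonin CDK9 came first (167.5 ± 3.18 TPM), then AFF4 (144 ± 5.43) and CCNT1 (81.3 ± 2.19). CDK12 (45.5 ± 0.27), LARP7 (44.7 ± 2.41) and CDK13 (41.9 ± 1.88) overlapped one after the other, and CCNT2 (36.4 ± 0.079), HEXIM1 (33.4 ± 0.33) and MEPCE (31.0 ± 1.85) followed. HEXIM1 and AFF4 changed order between the DMSO libraries, and HEXIM1 was in eighth place in wogonin.

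Ratios of TPM values within a library put the brake beside the kinase. HEXIM1 over CDK9 was 1.22 and 1.16 in DMSO and 0.198 and 0.201 in wogonin. The ratio was lower in both treated libraries by several-fold. TPM counts all exon reads, of which 81.3% and 79.3% were uniquely placed for HEXIM1 in DMSO and all for CDK9, so which of the genes is higher in DMSO depends on the reads counted. HEXIM1 and HEXIM2 together over the 2 T cyclins together came to 2.60 and 2.21 in DMSO and to 0.422 and 0.381 in wogonin. MEPCE over CDK9 was 0.627 and 0.602 in DMSO and 0.175 and 0.195 in wogonin. The T cyclins and the late kinases kept closer ratios: CCNT1 over CCNT2 was 2.43 and 2.47 in DMSO and 2.20 and 2.27 in wogonin. CDK12 over CDK13 was 1.22 and 1.15 in DMSO and 1.06 and 1.12 in wogonin. CCNK over the sum of CDK12 and CDK13 was 0.350 and 0.340 in DMSO and 0.566 and 0.555 in wogonin. These are ratios of transcripts, not of proteins.

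Intron reads can come from RNA not yet spliced and were scarce for these genes, at 303 to 551 reads per library over the 8 that have introns. MEPCE was the gene whose intron reads passed, with 40 and 53 reads in DMSO and 10 in each wogonin library. Its log2 change in introns was -2.50 ± 0.39 (SE, edgeR adjusted p = 5.4e-04), and 7 of the 8 genes did not pass (SE 0.257 to 0.513 on the log2 scale), against 20.1% of 10494 genes called in intron reads and 8.82% called as lower. The intron levels of the groups did not overlap for 3 of the 8 (CCNT1 above, LARP7 and MEPCE below), against 61% of those genes. CCNT1 had 22 and 18 intron reads in DMSO and 55 and 37 in wogonin (log2 change 0.88 ± 0.34, SE, edgeR adjusted p = 0.080). It passed when wogonin 3 was left out (0.89, adjusted p = 0.040) and when wogonin 4 was (0.82, adjusted p = 0.038), but not without DMSO 1 (1.04, adjusted p = 0.33) or DMSO 2 (0.71, adjusted p = 0.54). LARP7 had 22 and 25 in DMSO and 23 and 14 in wogonin (log2 change -0.66, edgeR adjusted p = 0.23). CDK9 had 7 and 16 against 12 and 14 intron reads, too few to set a direction.

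The wogonin libraries disagreed on the introns of AFF4, a gene with 57 and 59 intron reads in DMSO, 107 in wogonin 3 and 32 in wogonin 4. Scaled for the intron totals, it stood at 88.9 and 89.1 CPM of intron reads in DMSO and at 110.5 and 48.9 CPM in wogonin, so the treated libraries lay on either side of the vehicle libraries. Without wogonin 3 its intron log2 change was -0.85 (edgeR adjusted p = 0.016), and without wogonin 4 it was 0.24 (adjusted p = 0.42). CDK12, CDK13 and CCNT2 also had more raw intron reads in wogonin 3, the library with the high intron share, than in wogonin 4. After scaling CDK13 stood at 162 and 137 CPM in DMSO and at 165 and 144 CPM in wogonin. CCNT2 stood at 70.2 and 69.5 CPM in DMSO and at 75.4 and 68.7 CPM in wogonin. CDK12 stood at 115 and 103 CPM in DMSO and at 115 and 87.0 CPM in wogonin. For these 3 genes the groups overlapped, and the treated pair differed by 6.64 to 27.6 CPM, against 61.6 CPM for AFF4. Over all genes the number called in introns was 3578 without wogonin 3 and 4022 without wogonin 4, against 2113 with all 4 libraries.

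Whether the intron change differed from the exon change was tested with an interaction term, the library kept as a block. MEPCE passed, its intron change lying below its exon change by a log2 difference of -1.27 ± 0.41 (SE, edgeR adjusted p = 0.049), while the other 7 did not, against 10.4% of 10494 genes called (6.19% with a higher and 4.25% with a lower intron change). That call did not pass with library totals alone (adjusted p = 0.057), without DMSO 1 (0.21), without DMSO 2 (0.53) or without wogonin 3 (0.13). For the others the difference ran from -0.61 ± 0.49 (SE, CDK9) to 0.38 ± 0.35 (CCNT1).

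**Figure D3:**
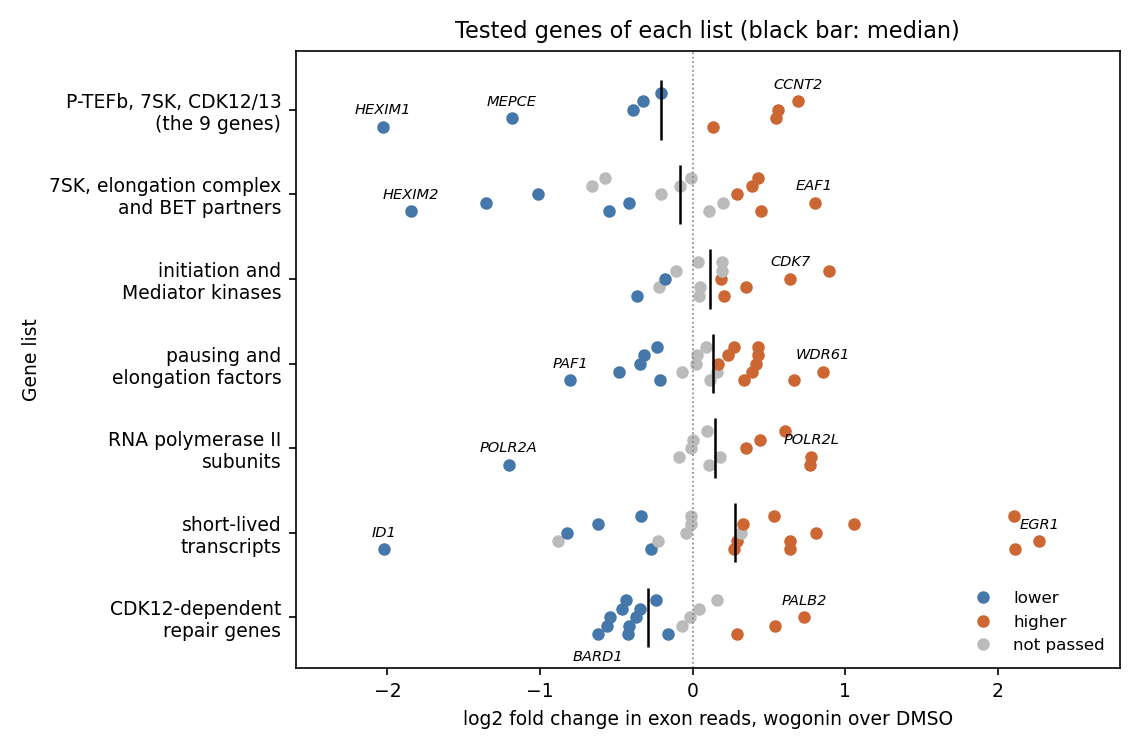
Log2 change in exon reads of every tested gene in 7 lists, each point a gene, coloured by its call at an edgeR adjusted p of 0.05, with a black bar at the list's median. POLR2A (-1.21) lies apart from the other polymerase subunits, and HEXIM2 (-1.85) is the lowest of the 7SK, elongation complex and BET partners.

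Other genes of the pathway were taken from lists and described by their counts, beside a median log2 change over all genes of -0.00066. Among 17 tested partners of 7SK, of the super elongation complex and of the BET family, 5 rose, 5 fell and 7 did not pass (median -0.08), against 32.3% higher and 31.5% lower over all genes. Upper-quartile scaling gave 5 higher and 8 lower. EAF1, a cofactor of the ELL elongation factors, rose from 69.4 and 73.2 CPM to 117 and 131 CPM (log2 change 0.80, edgeR adjusted p = 1.4e-07). BRD3, a BET protein that reads acetylated histones, fell by 0.55 on the log2 scale (edgeR adjusted p = 3.9e-06).

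Of 14 listed kinases, cyclins and subunits, 5 rose, 2 fell and 7 did not pass (median 0.11). Over all genes 32.3% were higher and 31.5% lower. The list holds genes of initiation and Mediator and also the other kinases and cyclins CDK10, CDK11A, CDK11B, CCNL1 and CCNL2. Of these others CDK11A, CDK11B and CCNL2 were among the genes that rose, beside CDK7 and MED13. The balance turned to 3 higher and 4 lower under library totals and under upper-quartile scaling, and to 2 higher and 3 lower in unique gene reads. CDK7, the kinase of TFIIH that also activates CDK9, went from 49.1 and 50.4 CPM in DMSO to 79.6 and 75.4 CPM in wogonin (log2 change 0.64, edgeR adjusted p = 2.3e-06). Its partners CCNH and MNAT1 had log2 changes of 0.04 each and did not pass (edgeR adjusted p = 0.72 and 0.76). CDK19, a Mediator kinase, fell by 0.36 on the log2 scale (edgeR adjusted p = 8.1e-04). CDK11A had a log2 change of 0.35 (edgeR adjusted p = 6.7e-04), but it shares reads with its near-identical copy CDK11B. In uniquely placed exon reads its value was 0.23 and did not pass (adjusted p = 0.076).

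Pausing and elongation factors went both ways, with 10 of 22 higher, 6 lower and 6 not passed (median 0.14), against 32.3% higher and 31.5% lower over all genes. Library totals and upper-quartile scaling each gave 8 higher and 7 lower. SUPT5H, a subunit of DSIF and a substrate of P-TEFb, rose from 176 and 168 CPM to 224 and 240.0 CPM (log2 change 0.43, edgeR adjusted p = 1.2e-05). The elongation factor SUPT6H rose by a log2 change of 0.66 (edgeR adjusted p = 2.5e-08). Subunits of the PAF1 complex split: PAF1 fell by 0.80 on the log2 scale (edgeR adjusted p = 7.1e-08) and CDC73 by 0.21 (edgeR adjusted p = 0.0075). WDR61 rose by a log2 change of 0.85 (edgeR adjusted p = 3.3e-07), RTF1 by 0.17 (edgeR adjusted p = 0.025), while CTR9 (0.09) and LEO1 (0.02) did not pass. The 4 subunits of the pausing complex NELF split as well, with NELFB (0.34) and NELFE (0.39) higher and NELFA (-0.32) and NELFCD (-0.23) lower, all at an edgeR adjusted p of 0.0086 or less.

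The substrate of these kinases showed the largest single fall among its subunits. POLR2A encodes the largest subunit of RNA polymerase II, which carries the tail that P-TEFb, CDK12 and CDK13 phosphorylate. It stood at 533 and 545 CPM in DMSO and at 238 and 230 CPM in wogonin, a log2 change of -1.21 ± 0.055 (SE, edgeR adjusted p = 4.6e-11). Of the 12 subunits tested, 5 rose, POLR2A fell and 6 did not pass (median 0.14), a called share below the 63.8% of all genes. POLR2H and POLR2L, small subunits shared with the other nuclear polymerases, rose by log2 changes of 0.77 and 0.78. POLR2B, the second-largest subunit, rose by 0.44 (edgeR adjusted p = 3.8e-06).

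Of 22 transcripts described as falling when CDK9 is inhibited, most of them short-lived, 11 were higher, 5 lower and 6 not passed (median 0.28). Over all genes 32.3% were higher and 31.5% lower. The treated libraries were taken at 48 h alone, so earlier levels of these transcripts were not measured, and inhibition of CDK9 was not tested. MCL1, a survival gene of that kind, went from 304 and 305 CPM to 370 and 377 CPM (log2 change 0.29, edgeR adjusted p = 1.7e-04). EGR1, an immediate early transcription factor, rose by a log2 change of 2.27 (edgeR adjusted p = 8.9e-10) and FOSL1 by 1.06 (edgeR adjusted p = 2.3e-07). ID1, an inhibitor of helix-loop-helix factors, fell by 2.03 on the log2 scale (edgeR adjusted p = 1.3e-09). MYC had a value of -0.27 (edgeR adjusted p = 0.0052), a call that did not pass without DMSO 1 (-0.17, adjusted p = 0.090).

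DNA repair genes described as dependent on CDK12 were lower in 11 of 18 cases and higher in 3, with 4 not passed (median -0.29), against 32.3% higher and 31.5% lower over all genes. DESeq2 called 8 as lower and 2 as higher. BARD1, the partner of BRCA1, fell from 46.4 and 45.1 CPM to 29.6 and 30.02 CPM (log2 change -0.62, edgeR adjusted p = 1.8e-05), and BRCA2 fell by 0.54 on the log2 scale (edgeR adjusted p = 2.9e-05). PALB2, which links BRCA1 to BRCA2, rose by a log2 change of 0.73 (edgeR adjusted p = 8.2e-07). ATR, a kinase of the replication stress response, rose by a log2 change of 0.54 (edgeR adjusted p = 6.3e-05). All of these lists were drawn up with earlier results of the same libraries known, and none was compared with other lists.

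**Figure D4:**
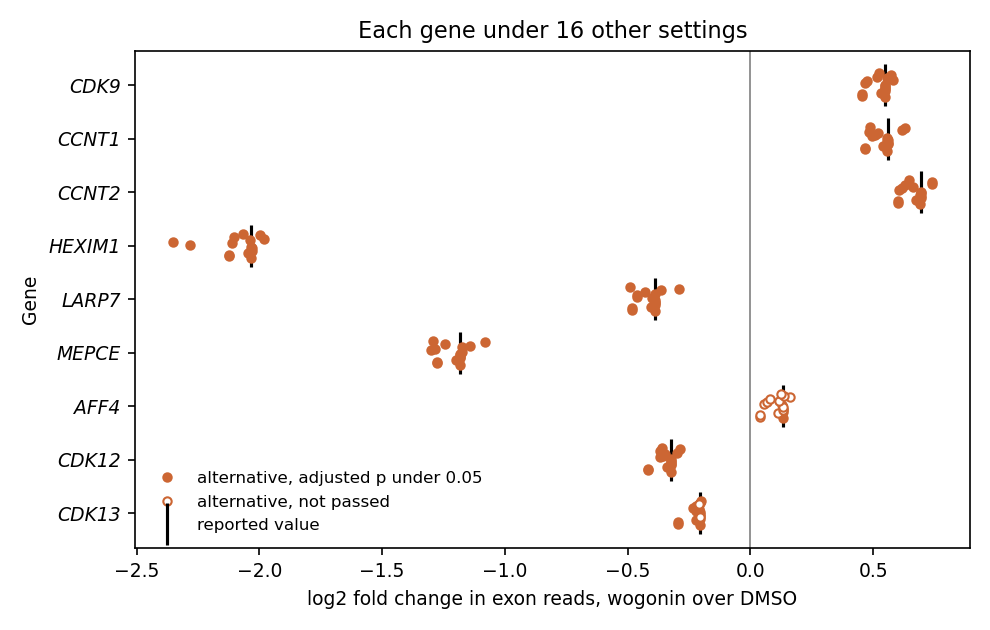
Log2 change in exon reads of each of the 9 genes as reported (black bar) and under 16 other settings (circles, filled where the adjusted p was under 0.05). HEXIM1 ran from -2.35 to -1.98, and AFF4 failed the test in 12 of the 16.

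No gene of the 9 changed direction in exon reads under any of the 16 other settings, which covered scaling, filters, tools, count columns, exon length and each library left out. CDK9 ran from 0.45 to 0.58, CCNT1 from 0.47 to 0.63 and CCNT2 from 0.60 to 0.74. HEXIM1 ran from -2.35 to -1.98, MEPCE from -1.30 to -1.08, LARP7 from -0.49 to -0.29 and CDK12 from -0.42 to -0.29. These 7 passed in each of the 16 settings.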

How the data were processed

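RNA was sequenced from 4 A2780 libraries made with a SMARTER mRNA kit, per the labels' protocols. Each deposited table lists 57773 genes with read counts in exons, introns and exon junctions, in total and uniquely placed, per the file headers. The authors also deposited TPM and RPKM values and fractions of unique and intron reads, per the file headers. The submitters' processing notes name GRCh 37 and hg 19. Not given in the sources used here were aligner, counter, annotation and strand setting. TPM served for levels between genes; RPKM and the fractions were not used.

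Total exon counts were tested over all genes in R 4.3.3 with edgeR 4.0.16 (TMM scaling, filterByExpr, robust quasi-likelihood fit, treatment as single term, 2-sided, Benjamini-Hochberg threshold 0.05). Intron counts were fitted likewise. The interaction used exon and intron columns with the library as a block. An exact permutation test of 2 against 2 cannot go below 0.333. SEs are the log2 change over the square root of its F. Alternatives used DESeq2 1.42.0, limma 3.58.1 (voom), other scalings, filters, count columns, an exon length trend (loess, span 0.3) and each library left out. The fits were tested on simulated data with 1.5-fold and 2-fold changes in a small part of the genes. The exon fit recovered most of these changes. The intron and interaction fits recovered few or none, so a gene that did not pass there may still have changed. Smaller changes, and changes in as many genes as were called here, were not simulated.

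The text names all 9 genes, the up to 3 genes per list lowest in adjusted p, direct partners, and genes overlapping them; others were chosen after their values were seen. Members and lists were chosen with earlier results of these data known. PECAM1 was not matched in the files, and some genes of the lists are not reported here. No gene was ranked by likeness of pattern, since 4 libraries hold 1 contrast.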

Additional observations from a re-analysis of the deposited data

How the results depend on the processing

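Of 32 genes named from the exon test, 27 kept direction and call in all 16 other settings, and all 32 kept direction. AFF4, CDK13, CDK11A and MYC were among the exceptions. The number of the 9 genes called ran from 7 to 9, and that of all genes from 6701 (DESeq2) to 9141 (no filter). Intron results rested on few reads and on single libraries. With 1 library left out, 655 to 4022 genes were called in introns and 205 to 2348 for intron against exon, and 1 to 3 and 0 to 1 of the 8 genes with introns; with library totals alone the last count was 0. The cause was not tested. Intron log2 changes that changed sign with 1 library left out ran from -0.57 to 0.57 (CDK9), -0.0099 to 0.044 (CCNT2), -0.85 to 0.24 (AFF4), -0.31 to 0.0059 (CDK12) and -0.084 to 0.16 (CDK13); intron minus exon values ran from -1.10 to 0.094 (CDK9) and -0.94 to 0.16 (AFF4). Where 1 library was left in a group, it was assumed to vary like the others. No paired analysis was possible because the groups share no replicate number.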
